A study of Mus musculus with 4 samples.

Results

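The genes described here are 10 mouse regulators of RNA splicing and message stability in neural cells, chosen by name out of 49997 gene rows: Ptbp1 and Ptbp2, Elavl1, Elavl2, Elavl3 and Elavl4, Nova1, Rbfox2, Celf1 and Srrm4. Their RNA was measured in wild-type iMOPs, immortalized progenitors of the mouse inner ear grown as a line, in 2 libraries labelled iMOP-derived neuron and 2 labelled proliferating. The cultures labelled neuron grew in Neurobasal medium with N21 supplement, with L-glutamine at 2 mM and the CDK2 inhibitor K03861 at 1 µM. The proliferating cultures grew in DMEM/F12 with N21, with the growth factor bFGF at 20 ng/ml and the antibiotic carbenicillin at 25 µg/ml. All 4 libraries came from a single cell line, and the labels do not say that those numbered 1 and 2 were separate cultures, so p-values measure only the spread between these samples.

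PTBP1 binds pyrimidine-rich RNA and holds back exons that neurons include, and its paralog PTBP2 takes its place as neurons form. The ELAVL proteins bind U-rich and AU-rich stretches of messages and pre-messages. ELAVL1 (HuR) is made in nearly all cells, while ELAVL2, ELAVL3 and ELAVL4 (HuB, HuC and HuD) are made mainly in neurons. NOVA1, RBFOX2, CELF1 and SRRM4 are further splicing regulators, and SRRM4 promotes the inclusion of neuronal microexons.

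A cassette exon links the PTBP pair. PTBP1 causes skipping of a short exon in the Ptbp2 message, which shifts the reading frame and sends that message to decay, and PTBP1 acts on the matching exon of its own message in the same way. Both exons are 34 bases long in the GENCODE M21 annotation of mm10. The exon of Ptbp1 lies at chr10:79862014-79862047 on the plus strand and is exon 9 of 13 in transcript Ptbp1-202. That of Ptbp2 lies at chr3:119724612-119724645 on the minus strand and is exon 10 of 14 in transcript Ptbp2-213. They are shown because the Ptbp1 to Ptbp2 balance is a main result below, and capitals mark the 26 positions (76.5%) at which both exons have the same base:
Ptbp1: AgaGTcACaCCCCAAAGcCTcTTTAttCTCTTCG
Ptbp2: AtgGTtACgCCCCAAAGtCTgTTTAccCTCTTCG
Both exons end in the same letters at the 3′ end. The annotation holds 2 Ptbp1 transcripts that span this exon and lack it, both of them marked for nonsense-mediated decay, and 3 such transcripts of Ptbp2, of which 2 are so marked. The deposited counts are sums over each gene, so inclusion of these exons was not measured.

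Ribosomal RNA took most of each library. It made up 88.2% and 92.6% of the counts in the neuron libraries and 90.7% and 98.1% in the proliferating libraries, which left 3241915 and 617872 counts against 292302 and 614465. Across genes, which are not independent replicates, libraries of the same number resembled each other (Pearson r of log2 CPM 0.78 and 0.82) more than libraries of the same group (0.50 in neuron and 0.40 in proliferating). GC dependence also went by number. Across genes, the Spearman correlation of GC content with a library's deviation from the 4-library mean was 0.67 in neuron 1 and -0.81 in neuron 2. It was 0.72 in proliferating 1 and -0.43 in proliferating 2. GC dependence differed between the groups as well. The log2 ratio of neuron over proliferating fell with GC content within number 1 (Spearman correlation -0.30) and within number 2 (-0.43), so ratios within a number are not free of it. The marker lists divided between going with and against the group labels. The summed level of 10 markers of dividing cells was 2073 and 4533 CPM in the neuron libraries against 257 and 684 CPM in the proliferating ones, and that of 10 neuron markers was 1402 and 1333 CPM against 2238 and 2120 CPM, none of them at 0 in all libraries. In edgeR with the library number as a term, 4 of the 10 markers of dividing cells were called higher in neuron, among them Cenpf (log2 fold change 3.53, adjusted p = 0.000900) and Mki67 (3.30, adjusted p = 0.00112). Of 6 tested neuron markers 1 was called, Stmn2, lower in neuron (-3.59, adjusted p = 0.00164 in edgeR). The neuron sum rests mostly on Map2 and Tubb3 in the libraries numbered 1 and on Map2 in those numbered 2. Dcx was at 0.10 and Uchl1 at 0.36 with group alone. Glia markers summed to 305 and 757 CPM against 1054 and 1574 CPM, with 1 of 10 (Sox10) at 0 in all libraries, and otic progenitor markers to 208 and 249 CPM against 394 and 567 CPM, with Pax8, Neurog1 and Isl1 of 10 at 0. The otic sum is thus higher in proliferating libraries, as their label has it, with Sox2 at -1.31 and Eya1 at 0.10 with group alone and no call in either fit. Sox2 alone made up most of that sum, at 123 and 201 CPM in neuron against 342 and 458 CPM in proliferating libraries. Eya1 overlapped between the groups. Of the glia markers, Fabp7 was the highest in every library and was not called in either fit. It was at 85.4 and 367 CPM in neuron against 309 and 1139 CPM in proliferating libraries, and its groups overlapped. Glia members went in opposite directions: with the number as a term Aqp4 was called higher in neuron (2.80, adjusted p = 0.0472 in edgeR) and Olig2 (-3.47, adjusted p = 0.000900 in edgeR) and Olig1 (-2.74, adjusted p = 0.0161 in edgeR) lower. The Aqp4 call was uneven. Its log2 ratio of neuron over proliferating was 0.46 within number 1 and 5.60 within number 2, where proliferating 2 had 3 counts. Mesenchyme markers summed to 9.58 and 2.07 CPM against 3.25 and 5.50 CPM, with Col1a2 and Prrx1 at 0 in all libraries, and immune markers to 5.85 and 0 CPM against 13.01 and 0 CPM, with Tyrobp at 0. Whether the labels of libraries were exchanged cannot be told from the files, and an exchange of the groups would turn every direction given below. The part of these marker shifts in the results below was not tested, and in bulk RNA fewer cells of a type and less RNA per cell cannot be told apart. CPM here is a gene's count scaled to the library's total outside ribosomal RNA, with TMM factors between libraries.

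None of the 9 regulators with enough counts to be tested differed between the groups beyond the spread between replicates. Of these 9, edgeR's quasi-likelihood test called 0, in either direction, and the share of all 9009 tested genes called was 0%, and 0 of the 9 had an unadjusted p under 0.05, against 97 of all genes. DESeq2 and limma voom also called 0 genes. In a fit with a term for the library number, 0 of the 9 were called, against 0.966% of all genes (0.644% higher and 0.322% lower), and 3 had an unadjusted p under 0.05, against 894 of all genes. The median log2 fold change of the 9, neuron over proliferating, was -0.40, against -0.03 over all tested genes. The groups did not overlap for 3 of the 9 regulators, against 17.9% of all genes. Elavl2 was higher in both neuron libraries, as were 9.41% of all genes, while Elavl3 and Nova1 were lower in both, as were 8.5% of all genes.

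**Figure D1:**
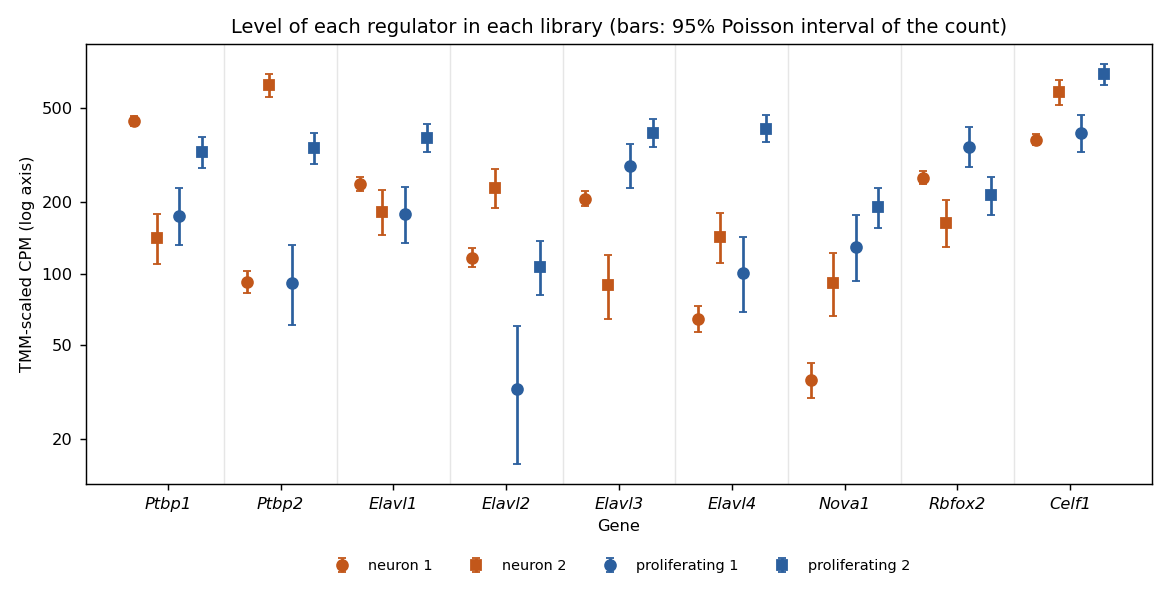
Level of 9 regulators in each library, in TMM-scaled CPM on a log axis, with neuron libraries in orange left of proliferating libraries in blue, circles for number 1 and squares for number 2, and bars for the exact 95% Poisson interval of the count. Elavl2 is higher in both neuron libraries, Elavl3 and Nova1 are lower in both, and the groups overlap for the other 6 genes.

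Ptbp1 (chromosome 10, 79854427 to 79864771, plus strand) encodes the repressor of neuronal exons. It had 1661 and 68 counts in the neuron libraries against 54 and 178 in the proliferating libraries, or 442 and 141 CPM against 176 and 326 CPM. The highest and the lowest level were thus both in libraries labelled neuron, and the groups overlapped. Its log2 fold change was 0.22 (SE 1.04, adjusted p = 1.000 in edgeR, n = 2 each). Within number 1 the log2 ratio of neuron over proliferating was 1.29 and within number 2 it was -1.18.

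Ptbp2 (chromosome 3, 119718742 to 119784466, minus strand), the paralog that neurons use, had 346 and 302 counts in the neuron libraries against 28 and 185 in the proliferating ones. Its level was 92.1 and 626 CPM against 91.1 and 339 CPM, high in both libraries numbered 2 and low in both numbered 1. The log2 fold change was 0.73 (SE 1.17), with -0.02 within number 1 and 0.91 within number 2. After a correction for GC content in the fit with the number as a term, the value for Ptbp2 was -0.70.

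The Ptbp1 to Ptbp2 balance is a ratio within a library, so it needs no scaling between libraries. Ptbp1 made up 82.8% of the 2007 counts of the pair in neuron 1 (95% Clopper-Pearson interval 81.0 to 84.4) and 18.4% of 370 in neuron 2 (14.6 to 22.7). In proliferating 1 it made up 65.9% of 82 counts (54.6 to 76.0) and in proliferating 2 49.0% of 363 (43.8 to 54.3). The neuron libraries lay on either side of both proliferating libraries, with intervals that did not touch those of any other library. On the log2 scale the ratio averaged 0.06 ± 3.12 in neuron and 0.45 ± 0.71 in proliferating libraries (SD, n = 2 each), a difference of -0.39 (exact two-sided permutation p = 1.00, where the smallest p the design allows is 0.333).

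Within each number the balance moved in opposite directions. The ratio was 2.49 times as high in neuron 1 as in proliferating 1 (exact 95% interval 1.49 to 4.06) and 0.234 times as high in neuron 2 as in proliferating 2 (0.165 to 0.331). These intervals compare those libraries, not the conditions, and cover counting error only. Leaving out neuron 2 turned the group difference to 1.82, and leaving out proliferating 1 turned it to 0.11. The pair also differs in GC content, at 53.7% in the longest annotated transcript of Ptbp1 and 34.3% in that of Ptbp2. With a GC correction in each library, an alternative added after the data were seen, the log2 ratio was 1.08 and 0.52 in the neuron libraries against -1.21 and 0.60 in the proliferating ones. The difference was then 2.29 within number 1 and -0.08 within number 2. Per length, by the deposited RPKM, Ptbp1 was 7.17 and 0.336 times as high as Ptbp2 in the neuron libraries, against 2.88 and 1.44 times in the proliferating ones, so Ptbp2 was the higher of the pair in neuron 2 alone.

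**Figure D2:**
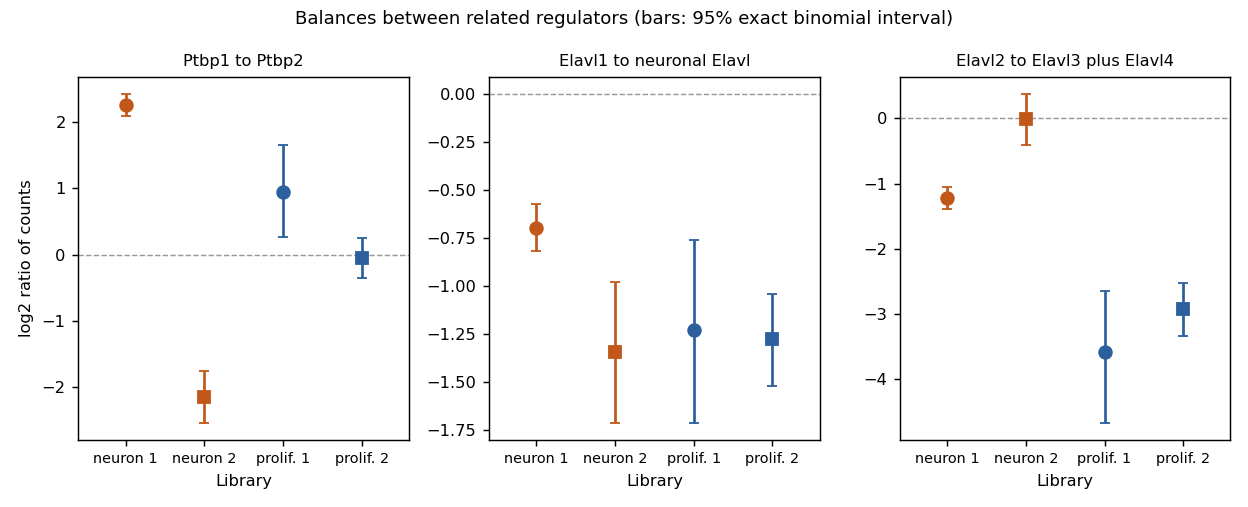
Log2 ratio of counts between related regulators in each library, with exact 95% binomial intervals, for Ptbp1 to Ptbp2, Elavl1 to the sum of Elavl2, Elavl3 and Elavl4, and Elavl2 to the sum of Elavl3 and Elavl4. Ptbp1 to Ptbp2 runs from 2.26 in neuron 1 to -2.15 in neuron 2 and spans both proliferating libraries, while Elavl2 to Elavl3 plus Elavl4 is -1.22 and -0.01 in neuron libraries against -3.57 and -2.92 in proliferating libraries.

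Elavl1 (chromosome 8, 4285382 to 4325413, minus strand), the member made in most tissues, had 901 and 88 counts in the neuron libraries against 55 and 205 in the proliferating ones. Its level was 240 and 182 CPM against 179 and 376 CPM, so the groups overlapped. The log2 fold change was -0.40 (SE 0.99), with 0.39 within number 1 and -1.01 within number 2.

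The 3 neuronal ELAVL genes did not move together. Elavl2 (chromosome 4, 91250763 to 91400785, minus strand) had 439 and 111 counts in the neuron libraries against 10 and 58 in the proliferating ones. Its level was 117 and 230 CPM against 32.5 and 106 CPM, higher in both neuron libraries, although neuron 1 exceeded proliferating 2 by less than the counting intervals. Its log2 fold change was 1.30 (SE 1.03, adjusted p = 1.000 in edgeR), with 1.76 within number 1 and 1.13 within number 2. With the number as a term it was 1.44 (SE 0.61, unadjusted p = 0.0203 and adjusted p = 0.357 in edgeR), and with a GC correction as well it was 0.56.

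Elavl3 (chromosome 9, 22015005 to 22052023, minus strand), a marker of young neurons, had 780 and 43 counts in the neuron libraries against 88 and 215 in the proliferating ones. At 208 and 89.1 CPM against 286 and 394 CPM it was lower in both neuron libraries. Its log2 fold change was -1.19 (SE 1.01), with -0.49 within number 1 and -2.10 within number 2, and with the number as a term it was -1.28 (SE 0.61, unadjusted p = 0.0360 and adjusted p = 0.445 in edgeR). Elavl4 (chromosome 4, 110203722 to 110351909, minus strand), known for its part in neurite growth, had 242 and 69 counts against 31 and 224. Its level was 64.4 and 143 CPM in neuron against 101 and 411 CPM in proliferating libraries, lower in neuron within each number but overlapping between groups. The log2 fold change of Elavl4 was -1.32 (SE 1.06), with -0.67 within number 1 and -1.49 within number 2, and it was 0.06 without proliferating 2. With the number as a term the value for Elavl4 was -1.10 (SE 0.59, unadjusted p = 0.0663 and adjusted p = 0.559 in edgeR), and with a GC correction as well -1.92 (unadjusted p = 0.00239 and adjusted p = 0.207 in edgeR).

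The Elavl1 to neuronal Elavl balance, with Elavl2, Elavl3 and Elavl4 summed, was similar in 3 of the libraries by counts without a GC correction. Elavl1 made up 38.1% of the 2362 counts of the 4 genes in neuron 1 (95% Clopper-Pearson interval 36.2 to 40.1) and 28.3% of 311 in neuron 2 (23.4 to 33.7), against 29.9% of 184 in proliferating 1 (23.4 to 37.1) and 29.2% of 702 in proliferating 2 (25.9 to 32.7). Neuron 1 was thus the highest, and the other 3 lay within each other's intervals. The log2 ratio averaged -1.02 ± 0.46 in neuron and -1.25 ± 0.03 in proliferating libraries (SD, n = 2 each), a difference of 0.23 (exact two-sided permutation p = 1.00). It was 0.53 within number 1 and -0.06 within number 2, and -0.09 without neuron 1. With the GC correction added after the data were seen, the log2 ratio was -0.52 and -1.27 in neuron libraries. In proliferating libraries it was then -0.89 and -1.58, and the difference was 0.37 within number 1 and 0.32 within number 2.

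Summed as deposited RPKM, the Elavl1 to neuronal Elavl ratio was 0.671 and 0.571 in the neuron libraries against 0.380 and 0.398 in the proliferating ones, a log2 difference of 0.67. The sum of RPKM gives Elavl2 little weight, because the length behind its RPKM was 24423 bases, against 5150 for Elavl3 and 6283 for Elavl4. Taken one gene at a time, the log2 difference in counts was -1.79 for Elavl1 to Elavl2, 0.99 for Elavl1 to Elavl3 and 0.77 for Elavl1 to Elavl4. The sum therefore joined partners that went in opposite directions against Elavl1.

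The make-up of the neuronal Elavl counts was chosen for description after its values were seen, so it is given with no test. Elavl2 took 30.0% of the 1461 neuronal Elavl counts in neuron 1 (27.7 to 32.5) and 49.8% of 223 in neuron 2 (43.0 to 56.5). In the proliferating libraries it took 7.75% of 129 (3.78 to 13.8) and 11.7% of 497 (8.98 to 14.8). Every neuron value lay above every proliferating value, with Clopper-Pearson intervals that did not overlap between the groups. Those intervals cover counting error only. The length behind the deposited Elavl2 values, 24423 bases, also exceeds the 8313 bases covered by all its GENCODE M21 exons. Reads from outside those exons could therefore be among the Elavl2 counts, which was not tested. Because the balance was picked with its values known, its separation cannot serve as evidence of a group difference. The log2 ratio of Elavl2 to Elavl3 plus Elavl4 averaged -0.62 ± 0.85 in neuron and -3.25 ± 0.46 in proliferating libraries (SD, n = 2 each), a difference of 2.63.

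As a ratio, Elavl2 to Elavl3 plus Elavl4 was 5.11 times as high in neuron 1 as in proliferating 1 (exact 95% interval 2.65 to 11.0) and 7.50 times as high in neuron 2 as in proliferating 2 (5.05 to 11.2), with intervals that compare those libraries alone. Leaving out each library in turn gave log2 differences between 2.03 and 3.23, and a GC correction gave 1.92. The part of GC content in this shift was not tested. Elavl2 and Elavl4, also taken as a pair after the values were seen, have GC contents of 38.5% and 38.9% in their longest transcripts. Those transcripts have 4191 and 4149 bases, against deposited lengths of 24423 and 6283. The GC content of all the counted sequence is thus not known, and this pair does not test its part. Between that pair the log2 ratio was 0.86 and 0.69 in the neuron libraries against -1.63 and -1.95 in the proliferating ones. The group difference of 2.56 was close to its values within number 1 (2.49) and number 2 (2.64). Elavl3 to Elavl4 went by number instead, at 1.69 and -0.68 in neuron against 1.51 and -0.06 in proliferating libraries.

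**Figure D3:**
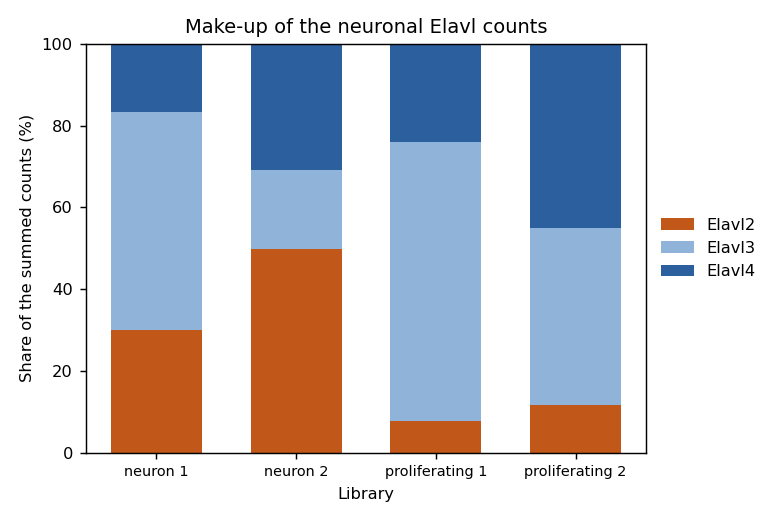
Share of the summed Elavl2, Elavl3 and Elavl4 counts that each gene took in each library, in percent. Elavl2, at the bottom of each bar, takes 30.0% and 49.8% in the neuron libraries and 7.75% and 11.7% in the proliferating libraries.

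Nova1 (chromosome 12, 46694517 to 46818929, minus strand) encodes a splicing regulator that binds YCAY repeats in neurons. It had 133 and 44 counts in the neuron libraries against 40 and 104 in the proliferating ones, or 35.4 and 91.2 CPM against 130 and 191 CPM. Both neuron libraries were below both proliferating libraries. Its log2 fold change was -1.36 (SE 1.00, adjusted p = 1.000 in edgeR), with -1.87 within number 1 and -1.03 within number 2. With the number as a term it was -1.47 (SE 0.60, unadjusted p = 0.0154 and adjusted p = 0.322 in edgeR), and with a GC correction as well -2.32 (adjusted p = 0.0719 in edgeR), still short of the threshold of 0.05.

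Rbfox2 and Celf1 had log2 fold changes smaller than their SEs, which does not show that their levels were equal. Rbfox2 (chromosome 15, 77078990 to 77307004, minus strand), a splicing regulator that reads the motif TGCATG and is made in many tissues, had 955 and 79 counts in the neuron libraries against 106 and 117 in the proliferating ones. Its level was 254 and 164 CPM against 345 and 215 CPM, lower in neuron within each number, with log2 ratios of -0.47 and -0.36 and a log2 fold change of -0.42 (SE 0.98). Celf1 (chromosome 2, 90940382 to 91019497, plus strand), which binds GU-rich RNA and acts on splicing and message decay, had 1384 and 282 counts against 121 and 380. At 368 and 585 CPM against 394 and 697 CPM, it had log2 ratios of -0.13 and -0.23 within the numbers and a log2 fold change of -0.20 (SE 1.04).

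Srrm4 (chromosome 5, 116439275 to 116591817, minus strand) had 0 counts in all 4 libraries. With a limit of 3 counts, these zeros are compatible with levels as high as 0.925 and 4.86 CPM (before TMM scaling) in the neuron libraries and 10.3 and 4.88 CPM in the proliferating ones. Srrm3, the paralog that also acts on microexons, had 29 and 2 counts in the neuron libraries against 12 and 3, too few to be tested. These counts are not scaled to depth, and neuron 1 held 3241915 counts outside ribosomal RNA against 292302 in proliferating 1.

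Of the 9 tested regulators, 6 had log2 ratios of one sign within both numbers, and so did 54.7% of all genes. Ptbp1, Ptbp2 and Elavl1 were the 3 with opposite signs. Of the 6 others, Elavl2 was above 0 and Elavl3, Elavl4, Nova1, Rbfox2 and Celf1 were below 0 in both.

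**Figure D4:**
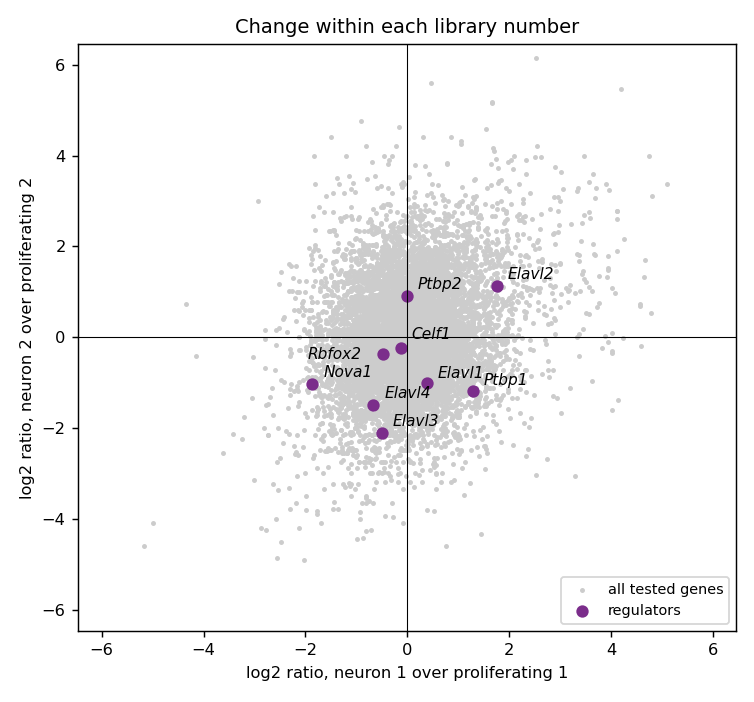
Log2 ratio of neuron over proliferating within number 1 (x axis) and within number 2 (y axis), relative to the median gene, with all 9009 tested genes in grey and 9 regulators in purple. Elavl2 lies above 0 on both axes (1.76 and 1.13), Nova1, Elavl3, Elavl4, Rbfox2 and Celf1 lie below 0 on both, and Ptbp1 lies at 1.29 and -1.18.

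Levels of different regulators were compared per length, within a library. By deposited RPKM, Ptbp1 was the highest in neuron 1 and both proliferating libraries (19.5 RPKM, against 5.52 and 1.74 RPKM) and Ptbp2 the highest in neuron 2 (7.78 RPKM). Ptbp1 and Elavl3 ranked 1 and 2 in both proliferating libraries, although the group's Elavl3 values of 5.42 and 1.27 RPKM overlapped those of Ptbp1. Nova1 and Elavl2 took ranks 8 and 9 in every library, and Srrm4 rank 10. Middle ranks depended on the library: Elavl1 lay between 3 and 5, Celf1 between 3 and 6, Rbfox2 between 3 and 7 and Elavl4 between 4 and 7, and their ranges over the libraries of a group overlapped. The order also depends on the length used, since the deposited length was 5.83 times the longest GENCODE transcript for Elavl2, 2.46 times for Nova1 and 2.05 times for Celf1. Per kilobase of that transcript, Elavl2 ranked 6 and 3 in the neuron libraries against 9 and 9 in the proliferating ones, and Celf1 ranked 2 and 2 against 3 and 3. The top ranks changed too. By that length Ptbp1 ranked 1 and 4 in the neuron libraries against 2 and 1 in the proliferating ones, and Elavl3 ranked 4 and 8 against 1 and 5.

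By profile over the 4 libraries, the 3 genes nearest to Ptbp1 among 7635 were Glrx5, Mrto4 and Arrdc4, at Euclidean distances of 0.05, 0.19 and 0.21 in log2 CPM centred on each gene's mean. Nearest to Ptbp2 were Nbn, Rnpc3 and Pura, at 0.10, 0.16 and 0.22. With 4 libraries that differ mostly by number, nearness describes these profiles and no more.

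Relatives of these families were also without a call. Of 14 further PTBP, RBFOX, NOVA, CELF, SRRM and HNRNPL genes, 8 were tested, 0 were called in either fit, and their median log2 fold change was -0.18. Srrm2 and Srrm1, general splicing coactivators, were at -0.19 and -0.67. Nova2, named after its values were seen, had 406 and 7 counts in the neuron libraries against 111 and 35, a log2 fold change of -1.76 (SE 1.20), and, like Nova1, negative ratios within both numbers (-1.76 and -2.01). Rbfox3, which encodes the neuronal marker NeuN, was also named after its values were seen. It had 176 and 3 counts, not scaled to depth, in the neuron libraries against 4 and 2, too few outside neuron 1 to be tested. Rbfox1 had 0 in all libraries.

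Other RNA-binding proteins of neural cells showed 0 called of 19 tested in either fit, with a median of 0.07. Qk and Msi2, regulators of glial and progenitor messages, were at 0.01 and -0.16. Among PTBP1 partners and regulators 0 of 9 were called, with a median of -0.17. Matr3, a nuclear matrix protein that shares targets with PTBP1, was at 1.27 (SE 1.15), and Rest, the repressor of neuronal genes that keeps Srrm4 silent outside neurons, at 0.15 (SE 0.98). The rows for the 3 miR-124 genes, whose miRNA lowers Ptbp1 in neurons, were at 0 counts in all libraries. These libraries were made from total RNA depleted of ribosomal RNA, not as small-RNA libraries. Mature miR-124 was therefore not measured, and the zeros do not show that it was absent.

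The general splicing machinery gave 0 called genes in either fit as well. The 13 tested SR proteins had a median log2 fold change of 0.05, with Son at 0.20 and Srsf1 at 0.44. The 25 hnRNP proteins had a median of 0.31, with 0.52 within number 1 and 0.46 within number 2, and 6 were higher and 2 lower in both neuron libraries than in both proliferating ones, where 9.41% of all genes were higher and 8.5% lower. Hnrnpu and Hnrnpk were at 0.78 and -0.39. The 33 core spliceosome genes had a median of 0.11, at 0.42 within number 1 and -0.32 within number 2, with 0.16 for Prpf8 and 0.48 for Sf3b1.

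Genes known as targets of these regulators were read at the gene level, since exon use was not measured. Of 22 tested, 0 were called with group alone and 1 fell with the number as a term, and the median was -0.32. That gene was Ank3, which encodes ankyrin-G of the axon initial segment and carries neuronal exons. Ank3 had 45 and 7 counts in the neuron libraries against 43 and 38, and its log2 fold change with the number as a term was -2.99 (SE 0.72, adjusted p = 0.0131 in edgeR). The call held when library totals replaced TMM in that fit (-2.95, adjusted p = 0.0264 in edgeR). It missed the threshold when DESeq2 size factors (-3.01, adjusted p = 0.0509 in edgeR) or a GC correction (adjusted p = 0.0503 in edgeR) were used, although the fold change stayed close to that value, and with group alone the value was -2.98 (adjusted p = 1.000 in edgeR). Its log2 ratios were -3.42 within number 1 and -2.12 within number 2.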

How the data were processed

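Per the labels' protocols, stranded libraries were made after DNase treatment and depletion of ribosomal RNA, with a total RNA input of 500 ng. The submitters' processing notes name the build mm10 and the tools HISAT2, SAMtools, featureCounts and DESeq2. Versions, gene annotation and the use of strand in counting are not given in the sources used here. Where genes overlap or lie antisense to each other, a read could therefore have been counted for either. Each library has a table of raw gene counts and a table of RPKM values, both as deposited by the authors. Counts divided by RPKM and library total gave the same length in every library (relative tolerance 0.001) for 10924 of 10924 genes with counts in all libraries, so the deposited RPKM is scaled to totals that include ribosomal RNA. Before any fit, 7 genes of ribosomal RNA or resembling it were removed.

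Counts of all other genes were fitted with edgeR 4.0.16 in R 4.3.3 (quasi-likelihood test, TMM, filterByExpr, 9009 genes tested), with group alone in the model. P-values were adjusted over all tested genes by the Benjamini-Hochberg method, with a threshold of 0.05. SEs were the log2 fold change over the square root of F. Log2 CPM used a prior count of 2. Both edgeR fits were tested on simulated data. Alternatives used DESeq2 1.42.0, limma 3.58.1, other scalings and filters, a term for the library number and a GC correction (a spline with 5 degrees of freedom on the GC content of the longest GENCODE M21 transcript, known for 96.1% of tested genes). Intervals are exact 95% intervals and, like the limit of 3 counts for a count of 0, cover counting error only, since reads are not independent molecules. Exact permutation tests over the libraries used all 6 arrangements. Exon sequences and gene positions came from GENCODE M21, which is on the build mm10.

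The 10 genes and the gene lists were chosen with earlier results of these data known. From each list the text names up to 3 called genes per direction (up to 2 for cell type markers), or the 2 with the highest mean level where none was called. Map2, Tubb3, Dcx, Uchl1 and Fabp7 were named after their values were seen. Protein sequences were not analysed here.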

Additional observations from a re-analysis of the deposited data

How the results depend on the processing

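No regulator was called in any of the 16 alternative fits, and with group alone 0 genes were called under every scaling, filter and tool and without any library, which cannot show that the result is stable. With the replicate number as a block 87 of all tested genes were called, with DESeq2 size factors added 32, with library totals added 55, and with a GC correction added 17. The numbers are not known to pair cultures; the deviations from the group means correlated at 0.74 across genes, a value that 2 groups of 2 make equal for both numbers. Signs turned for Ptbp2 with the block and the GC correction (-0.70), for Elavl1 on log2(RPKM + 1) (0.13) and for Celf1 on log2(RPKM + 0.1) (0.036) and log2(RPKM + 1) (0.13), both relative to the median of all genes. Elavl2 and Nova1 did not reach 1 RPKM in any library and have no fitted value in the RPKM alternatives. The Ptbp1 to Ptbp2 difference turned to 1.32 within number 1, to 1.11 with the GC correction and to 2.29 with it within number 1, and the Elavl1 to neuronal Elavl difference to -1.79 against Elavl2 alone and to -0.064 within number 2. Leaving out each library in turn gave log2 fold changes from -0.88 to 0.80 for Ptbp1, -1.26 to 2.01 for Ptbp2, -0.81 to 0.27 for Elavl1, -2.02 to 0.064 for Elavl4 and -0.58 to 0.31 for Celf1. It gave differences from -2.60 to 1.82 for Ptbp1 to Ptbp2 and from -0.088 to 0.56 for Elavl1 to neuronal Elavl. The signs of Elavl2 (0.71 to 2.44), Elavl3 (-1.98 to -0.73), Nova1 (-2.19 to -0.86) and Rbfox2 (-0.84 to -0.02) held without any library. The cause of each turn was not tested. The RPKM and library-total alternatives are given relative to the median of all genes, which was 0.87 on log2(RPKM + 0.1) and 0.44 on log2(RPKM + 1). Only the fold changes were shifted by that median. The p-values and calls of those alternatives belong to the values before the shift, so they do not test the values given. With the block and the GC correction the values were 0.41 for Ptbp1, -0.55 for Elavl1, -0.15 for Rbfox2 and -0.32 for Celf1, none of them called. Depth outside ribosomal RNA was low, with 292302 counts in the shallowest library, proliferating 1, and its part in the spread between libraries was not tested.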
